A study of Drosophila melanogaster with 12 samples.

Results

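Transcripts of fly heads were compared between the subjective day and the subjective night of a single day in constant darkness, when light no longer marks the time. The comparison takes its 6 arrays from the 12 of the series by their labels: 3 of the subjective day (circadian times CT4, CT8 and CT12) and 3 of the subjective night (CT16, CT20 and CT24), where CT0 is the hour at which lights would have come on. All flies were of the cn bw strain, which carries eye colour mutations in cinnabar and brown, and all had been kept for 3 days in light for 12 hours and dark for 12 hours of each day. They were collected every 4 hours, first through 1 more light/dark day (light phase ZT4, ZT8 and ZT12; dark phase ZT16, ZT20 and ZT24), then through the day in darkness, and RNA came from about 100 to 200 pooled heads. Sex and age of the flies are not given in the sources used here. Each hour was measured on 1 array, and nothing in the labels says whether hours came from separate cultures, so the 3 hours of a phase stand as its replicates. The p-values therefore measure the spread among hours of a phase, which holds any change within the phase as well as technical spread. The subjective night also came after the subjective day, so phase and time spent in darkness cannot be told apart.

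In the fly clock, the transcription factors CLK and CYC switch on per and tim, whose proteins return to the nucleus and block CLK and CYC, which gives a loop of about a day. A second loop runs through vri and Pdp1, which repress and activate Clk, and cwo dampens the targets of the first loop. Cryptochrome, the product of cry, is the blue light receptor that resets the loop through TIM, and Pdf is the peptide by which clock neurons signal to each other. The head also holds the compound eyes, whose photoreceptors have clocks of their own, the brain, fat body and muscle.

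Values are log2 signals of probe sets, a gene is its brightest probe set, and a difference is the mean of the subjective day minus the mean of the subjective night. A gene is called changed when limma's moderated test gives a Benjamini-Hochberg adjusted p under 0.05 over all probe sets. With 3 arrays against 3, an exact permutation test of 1 gene cannot go below p = 0.1. The arrays were not alike. The 3' minus 5' signal of control genes, which grows as RNA breaks down, was 2.88 in CT4, 2.02 in CT8 and 1.70 in CT12, against 2.08, 1.49 and 1.96 in CT16, CT20 and CT24. CT4 stood at least 1 away from the mean of the other day arrays in 255 genes and CT8 in 208, against 76 genes for CT16, 3 for CT20 and 11 for CT24 within the night. In most of these genes CT4 and CT8 were the low array (171 of 255 and 181 of 208), and in CT12 the counterpart was 103 high genes of 105. Of the head markers, the arrestin gene Arr2 of the photoreceptors lay between 11.00 and 11.25 in all 6 arrays. Another photoreceptor arrestin gene, Arr1, was less steady, from 9.71 in CT4 to 11.20 in CT12. The neuronal RNA-binding gene elav lay between 3.70, in CT8, and 5.94, in CT4. The medians of the arrays were 4.805 to 4.867, so elav was not clearly above them.

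Edc3 and CG7564, adjacent genes of chromosome arm 3L, were lower in the subjective day than in the subjective night, and they were the 2 calls among 10843 genes (0.0184%). Edc3 encodes a protein that promotes removal of the cap from mRNAs and gathers in cytoplasmic bodies where mRNAs are broken down. It measured 4.15, 3.87 and 4.22 at CT4, CT8 and CT12, against 5.93, 6.04 and 6.21 at CT16, CT20 and CT24. All 3 day arrays thus lay at least 1 log2 unit below all 3 night arrays. Edc3 fell by 1.98 ± 0.13 on the log2 scale (SE, n = 3 each), which is 3.95-fold lower in the subjective day (limma adjusted p = 0.0079, n = 3 each). CG7564 measured 4.14, 4.10 and 4.08 in the subjective day, against 5.83, 5.72 and 5.53 in the subjective night. CG7564, also listed as Alsin2 by RefSeq, fell by 1.59 ± 0.10, a 3.01-fold lower level (limma adjusted p = 0.0079, n = 3 each). Its day arrays differed among themselves by less than 0.1, and the step lay between CT12 and CT16. The annotated spans of the neighbours do not overlap in the fly assembly Release 6 plus ISO1 MT.

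Neither call rested on CT4 or CT8 for its size. The difference of Edc3 was -2.02 without CT4, -1.88 without CT8 and -1.84 without both, and that of CG7564 was -1.61, -1.59 and -1.62. Both calls held without CT4 (adjusted p = 0.0463 for each, limma). They also held with the 3' minus 5' signal as a covariate (limma adjusted p = 0.0459 for each). Without CT8, Edc3 was still called (adjusted p = 0.0348) and CG7564 was not (adjusted p = 0.0589, limma). Leaving out CT12, CT16, CT20 or CT24 ended both calls (limma adjusted p between 0.0585 and 0.1406), with differences between -1.91 and -2.05 for Edc3 and between -1.52 and -1.67 for CG7564. Without CT4 and CT8, the sole day array CT12 is taken to vary like the night arrays, and neither gene passed (limma adjusted p = 0.3696 for Edc3 and 0.4468 for CG7564).

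No gene was called higher in the subjective day (0 of 10843). At an unadjusted limma p under 0.05, 80 genes (0.738%) were higher and 176 (1.62%) lower. By overlap, all 3 day arrays lay above all 3 night arrays in 421 genes (3.88%) and below them in 378 (3.49%). In either direction these are 2.36% and 7.37% of genes. With no change in any gene and arrays that vary alike, a share of 0.05 would have such a p and 0.1 would separate. Neither count exceeds that, so neither is read as change beneath the calls. Small differences ran mostly upwards, with 6220 genes (57.4%) higher in the subjective day and a median difference of 0.02 over all genes. Large ones ran mostly downwards: 133 genes were lower by at least 0.5 and 24 were higher by as much, which together are 1.45% of genes, and at a difference of at least 1 (0.148% of genes) the counts were 13 lower and 3 higher.

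The genes that follow Edc3 and CG7564 by p, with groups that do not overlap and a difference of at least 0.5, did not pass the test and are given as values. Ythdf, a reader of methylated adenosine in mRNA, measured 4.93, 4.77 and 5.12 in the subjective day, against 6.35, 6.17 and 5.78 in the subjective night. Its difference was -1.16 ± 0.17 (SE, n = 3 each; adjusted p = 0.7774, limma). CASK, a membrane scaffold of synapses, measured 6.27, 5.60 and 6.08, against 7.33, 7.45 and 6.97. The other probe sets of CASK differed by -0.87, without overlap, and by -0.55. Ae2, which exchanges chloride for bicarbonate, measured 6.48, 5.63 and 6.41, against 7.39, 7.37 and 7.38, so its night arrays were nearly equal and its lowest day array was CT8. IP3K2, a kinase of the second messenger inositol trisphosphate, had a difference of -0.92 ± 0.14, and the second probe set of this gene one of -0.01 ± 0.14.

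Among the others on the lower side, cic, a transcriptional repressor that growth factor signalling relieves, measured 5.45, 5.46 and 5.21 in the subjective day, against 6.27, 6.11 and 5.79 in the subjective night. The second probe set of cic differed by -0.16, again without overlap. CycT, the cyclin partner of the kinase that releases paused RNA polymerase, had a difference of -0.55 ± 0.11. Indy, a citrate transporter of the plasma membrane, had -0.55 ± 0.11 and su(r), which breaks down pyrimidines, -0.50 ± 0.10. CG9003 had -1.03 ± 0.17 and CG14118 -0.72 ± 0.13. All of these kept at least 0.5 of their difference without CT4 and CT8: the value left was -1.17 for CASK, -0.98 for Ythdf, -0.97 for Ae2, -0.85 for cic, -0.69 for CycT, -0.46 for su(r) and -0.38 for Indy.

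On the higher side only 10 genes had groups that do not overlap and a difference of at least 0.5, and none passed the test. CG17298 measured 9.82, 10.83 and 9.71 in the subjective day, against 8.90, 8.64 and 8.11 in the subjective night, a difference of 1.57 ± 0.33 (SE, n = 3 each; adjusted p = 0.9996, limma). CG8483 measured 6.55, 7.19 and 6.25, against 5.36, 5.45 and 5.65, a difference of 1.18 ± 0.23. CT8 was the highest array of both, and without it the differences were 1.22 and 0.92. Cht5, a chitinase that takes part in turnover of the cuticle, measured 7.49, 7.15 and 7.06, against 6.37, 6.76 and 6.35. Sclp measured 7.70, 7.95 and 8.29, against 6.82, 7.47 and 6.73, and differed by 0.97 ± 0.23, or 1.28 without CT4 and CT8.

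Of the other genes on the higher side, Chchd2, a protein of the mitochondrial intermembrane space, measured 9.74, 8.58 and 8.33 in the subjective day, against 7.82, 7.45 and 7.43 in the subjective night. sesB, the carrier that exchanges ADP and ATP across the inner mitochondrial membrane, measured 10.80, 11.28 and 10.98, against 10.57, 10.39 and 10.59. The ubiquitin ligase Trc8 differed by 0.57 ± 0.21, the initiation factor subunit eIF3k by 0.55 ± 0.24 and CG2926 by 0.52 ± 0.15. The dimmer second probe set of CG2926 differed by 0.12, also without overlap. Acp95EF, a gene of the male accessory gland, was carried by 1 array: it measured 6.10 at CT8, against 4.68 and 4.50 at CT4 and CT12 and 4.43, 4.44 and 4.29 in the subjective night. Without CT8 its difference was 0.20.

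Single arrays carried much of what was seen below the level of the calls. Of the 157 genes with a difference of at least 0.5 in either direction, 128 (81.5%) kept at least 0.5 of it without CT4 and 132 (84.1%) without CT8, against 154, 157, 157 and 155 without CT12, CT16, CT20 and CT24. Without both CT4 and CT8, 71 of the 157 (45.2%) kept that much, 27 turned their sign and the median gene kept 0.45 of its difference. Of the 16 genes with a difference of at least 1, 15 kept at least 0.5 of it without CT4, 15 without CT8 and 12 without both. The 256 genes with an unadjusted p under 0.05 held their size better than their p: without CT4 255 of them kept at least 0.5 of the difference and 134 kept the p, and without CT8 the counts were 256 and 141. Of the same genes, 136, 95 and 118 kept the p without the night arrays CT16, CT20 and CT24, and 210 kept it without CT12.

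**Figure D1:**
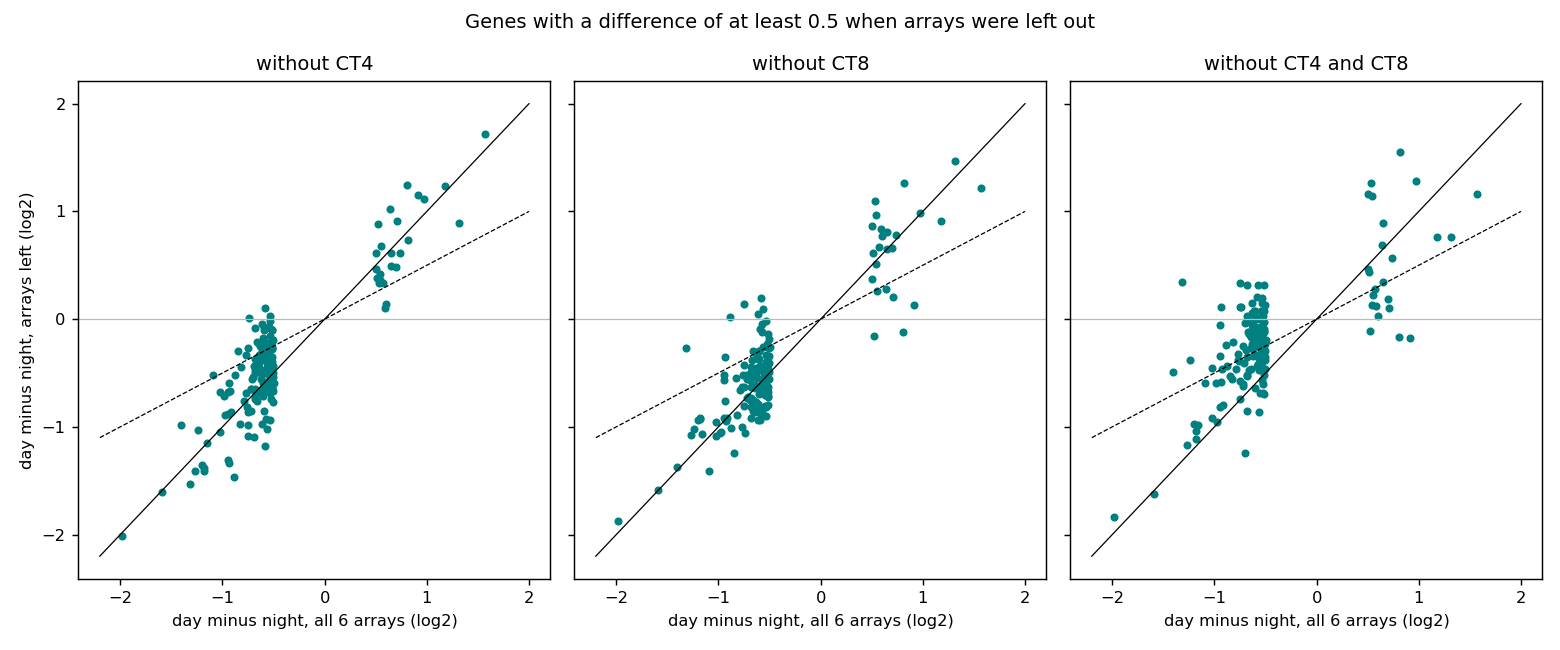
Each point is 1 of the 157 genes whose subjective day minus subjective night difference was at least 0.5 (log2); the x axis gives that difference over all 6 arrays and the y axis the same difference without CT4, without CT8 or without both. Points on the solid line did not move, and points between the dashed line and the zero line lost over 0.5 of the difference; without both arrays 71 of the 157 kept at least 0.5 of it and 27 crossed zero.

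The genes that lost most without CT4 were all low in that array, but for Chchd2, which was high in it. CG5172 measured 7.23 at CT4, against 9.02 and 8.87 at CT8 and CT12 and 9.40, 9.71 and 9.28 in the subjective night, and its difference of -1.09 became -0.52 without CT4. CG3061 was lowest in CT4 as well, at 4.63, 5.41 and 6.39 in the subjective day, against 6.36, 7.28 and 7.00 in the subjective night (difference -1.40, and -0.98 without CT4). Sirup, an assembly factor of the respiratory enzyme succinate dehydrogenase, differed by -1.03, and by -0.68 without CT4. Prps, which makes the activated ribose used for nucleotides, measured 6.86, 6.84 and 8.15, against 8.18, 8.70 and 8.70, so CT4 and CT8 were equally low, and the difference of -1.24 was -0.38 without both.

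The non-coding RNA gene CR42862 lost the most of its difference without CT8 among the 16 genes with a difference of at least 1. It measured 7.38, 4.87 and 8.61 in the subjective day, against 7.65, 8.48 and 8.66 in the subjective night. Its difference of -1.31 ± 0.87 was -0.27 without CT8 and 0.34 without CT4 and CT8 (lncRNA:CR42862 in the annotation). A second probe set showed the same low array, at 4.71 in CT8 against 7.84 and 8.32 in CT4 and CT12. The seizure gene jus, at 6.09, 5.14 and 5.83 against 7.32, 6.73 and 6.56, was lowest in CT8 too but held -0.91 without it and -1.04 without both.

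The core clock genes gave no call between subjective day and subjective night: of 8 measured, 0 passed the test, 0 had an unadjusted p under 0.05 and 0 had groups that do not overlap (limma; 2.36% of all genes had an unadjusted p under 0.05 and 7.37% did not overlap). vri and tim stood highest at the border between the phases. vri measured 5.33, 5.84 and 6.66 at CT4, CT8 and CT12 and 6.64, 5.67 and 5.52 at CT16, CT20 and CT24, so its highest arrays were the last of the day and the first of the night. Its day mean and night mean were both 5.94, and the difference was -0.00 ± 0.41. tim measured 4.34, 4.67 and 6.08, against 6.37, 5.88 and 5.64, with its lowest arrays at CT4 and CT8 and its highest at CT16. Its difference was -0.94 ± 0.44 (limma adjusted p = 0.9996), it was 0.11 without CT4 and CT8, and a second probe set gave -0.53 ± 0.32.

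**Figure D2:**
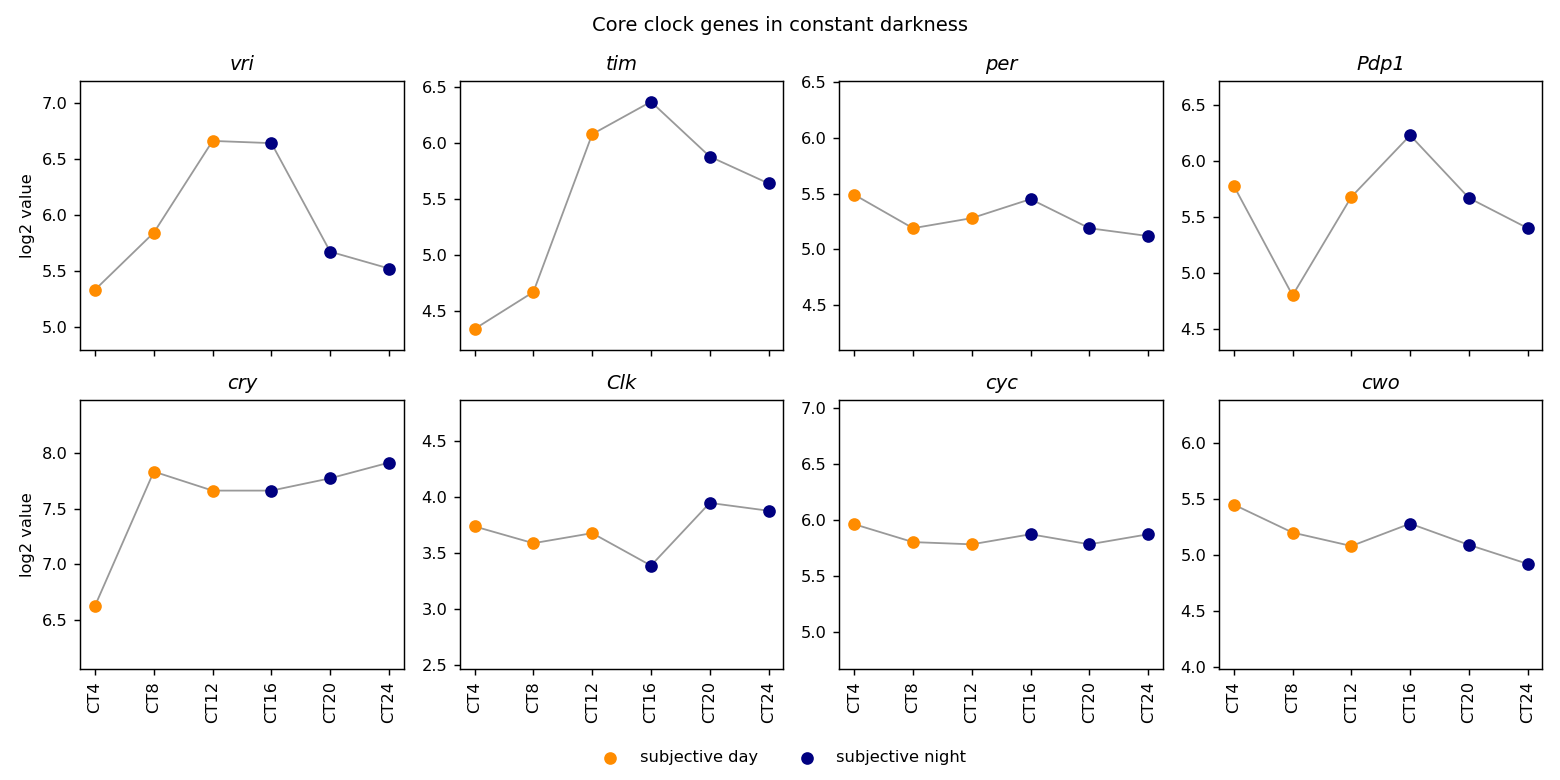
Log2 values of the 8 core clock genes by circadian time in constant darkness, 1 array per hour, with the 3 subjective day arrays in orange and the 3 subjective night arrays in blue; every panel spans the same number of log2 units. vri and tim stood highest at CT12 and CT16, on both sides of the border between the phases. The probe sets shown for per, cyc and cwo varied by under 0.6, while a second probe set of cwo, not shown, varied more.

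The remaining clock genes varied less or along with single arrays. Pdp1 measured 5.78, 4.80 and 5.68, against 6.23, 5.67 and 5.40, and its difference of -0.34 was -0.04 without the low CT8. cry measured 6.63, 7.83 and 7.66, against 7.66, 7.77 and 7.91, and its difference of -0.40 was -0.03 without the low CT4. per, at 5.49, 5.19 and 5.28 against 5.45, 5.19 and 5.12, differed by 0.06 ± 0.13. Clk differed by -0.07 ± 0.16, cyc by 0.01 ± 0.09 and cwo by 0.15 ± 0.14. A second, dimmer probe set of cwo varied more, from 4.55 at CT4 to 3.23 at CT24, and differed by 0.38 ± 0.34.

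Of 10 measured kinases and other modifiers of the clock (15 listed), 0 were called. tyf, whose product promotes translation of per, was the 1 member of 10 with groups that do not overlap, beside 7.37% of all genes. It measured 3.86, 3.73 and 4.01, against 4.41, 4.38 and 4.24 (difference -0.48 ± 0.11, limma adjusted p = 0.9996). slmb, the ubiquitin ligase subunit that marks PER for breakdown, measured 3.50, 3.70 and 4.52, against 4.18, 4.51 and 4.67. The list's median difference was -0.16 and was 0.03 without CT8, where dco, the kinase of PER, stood at 6.17 and the other arrays between 6.58 and 7.41. Of 11 measured genes recalled as head oscillators in published time courses, 0 were called and 7 were higher; the glycosyltransferase Ugt35B1 differed by 0.65 ± 0.27, and its second probe set by 0.07, while the ecdysone-degrading enzyme Cyp18a1 differed by 0.25 ± 0.16.

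Of 19 measured neuropeptide and receptor genes, 0 were called. Pdf measured 6.90, 7.08 and 6.85 in the subjective day, against 6.68, 6.74 and 6.74 in the subjective night (difference 0.22 ± 0.09; limma adjusted p = 0.9996). NPF, CCHa1 and Akh were higher without overlap too, by 0.11, 0.19 and 0.16, and Mip differed by -0.17, also without overlap. The higher ones, Pdf, NPF, CCHa1 and Akh, were 4 of 19, beside 3.88% of all genes higher without overlap. Mip was 1 of 19, beside 3.49% of all genes lower without overlap. sNPF, a peptide that acts in feeding and sleep, measured 5.04, 4.93 and 5.51, against 5.48, 5.59 and 5.64 (-0.41 ± 0.16). Of 15 measured ion channel genes 0 were called and none had groups that do not overlap; Ih, the channel opened by hyperpolarization, differed by -0.63 ± 0.26 and by -0.12 without CT4 and CT8. Hk, the beta subunit of a potassium channel, differed by -0.44 ± 0.27. The dimmer second probe set of Ih differed by -0.13, without overlap, and that of Hk by -0.06.

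Lists of cell type markers stood apart in single arrays. In pooled heads, fewer cells of a type and less RNA per cell cannot be told apart. Of 16 measured neuron markers, 0 were called and 11 were lower in the subjective day, with a median difference of -0.20, against 0.02 over all genes. The list's median relative to each gene's mean was 0.34, -0.68 and -0.05 at CT4, CT8 and CT12, and 0.25, 0.04 and -0.01 at CT16, CT20 and CT24, and its difference was 0.06 without CT8 and -0.46 without CT4. Their summed linear signal was 1508, 833 and 1332 in the day arrays, against 1509, 1430 and 1309 in the night arrays. The vesicle gene Syn measured 2.59 at CT8, against 4.41 and 3.83 at CT4 and CT12 and 4.30, 4.00 and 4.12 in the night. The list did not move as one: cac was highest in CT8, at 4.94, and Gad1 was lowest in CT4. The members brp and para were not lowest in CT8 either. Lower without overlap were 2 of the 16, beside 3.49% of all genes. They were ChAT, which makes acetylcholine (-0.54 ± 0.14), and futsch, a microtubule protein of axons (-0.59 ± 0.19). Their other probe sets overlapped between the groups and differed less: by 0.11 for the second of ChAT, and by -0.31 and -0.01 for those of futsch.

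Of 27 measured gut markers (33 listed), 24 were higher in the subjective day, where 57.4% of all genes were, and 0 were called. CT8 was the high array of most of them. The list did not move as one, since LysS and LysX were lowest in CT8. Jon66Ci, Jon74E, Jon99Fi and Mal-A1 were not highest there. The list's median was 0.40 in CT8 and between -0.16 and -0.02 in the other 5 arrays, its difference of 0.19 was 0.01 without CT8, and its summed linear signal was 2507, 3639 and 2206 in the day arrays against 2442, 2286 and 2228 in the night arrays. The digestive protease Jon25Biii measured 5.84 at CT8, against 3.78 and 3.87 at CT4 and CT12 and 4.15, 3.96 and 3.82 in the night, and the lysozyme LysC 8.18, against 6.72 and 6.84 and 6.78, 6.85 and 6.80. Of the proteases Jon99Fii and Jon66Cii, the first differed by 0.32 ± 0.15 and the second, without overlap, by 0.19 ± 0.10. Jon66Cii was 1 of 27, beside 3.88% of all genes higher without overlap. How far the mix of tissues in CT8 bears on the genes carried by that array was not tested.

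By list median, CT4 was the low array for muscle, fat body and sugar breakdown. Of 9 measured glycolysis genes (13 listed), all were lower in the subjective day, 0 were called, and the median difference was -0.32, or -0.14 without CT4. The list's medians were -0.62, 0.14 and -0.04 at CT4, CT8 and CT12, and 0.27, 0.18 and 0.11 at CT16, CT20 and CT24. Ald1, the aldolase, measured 9.87, 10.50 and 10.40, against 10.84, 10.73 and 10.61, so its groups did not overlap (difference -0.47 ± 0.17), and Pgi, which turns glucose phosphate into fructose phosphate, differed by -0.44 ± 0.18. Of 15 muscle markers 11 were lower, 0 were called, and the median of -0.17 was 0.05 without CT4, where their summed linear signal was 6027, against 9923 to 11666 in the other 5 arrays. The list did not move as one, since 4 members, TpnC41C, TpnC73F, bt and Mf, were highest in CT4. The troponin C gene TpnC73F, the member without overlap, was higher in the subjective day: it measured 4.04, 3.93 and 3.58, against 3.40, 3.35 and 3.42 (difference 0.46 ± 0.13). The flight muscle actin gene Act88F differed by -0.43 ± 0.27. Of 11 fat body markers 8 were lower, 0 were called, and the median of -0.13 was -0.02 without CT4. Here too members differed: apolpp was lowest in CT8, at 7.66 against 9.61 in CT4. Tsf1, Fbp1 and Fbp2 were not lowest in CT4 either. The storage protein Lsp2 measured 9.34, 10.04 and 9.92, against 10.65, 10.30 and 10.38, and the secreted binding protein Obp99a 8.08, 8.62 and 9.04, against 9.07, 9.57 and 9.87, and neither overlapped. Without CT4, Lsp2 still differed by -0.47 and Obp99a by -0.67. Lsp2 and Obp99a were 2 of 11 fat body markers and Ald1 was 1 of 9 glycolysis genes, beside 3.49% of all genes lower without overlap. TpnC73F was 1 of 15 muscle markers, beside 3.88% of all genes higher without overlap. CT4 was also the array with the highest 3' minus 5' signal of the 6. That signal served as a covariate for single genes only, and the part of RNA quality in these lists was not tested.

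**Figure D3:**
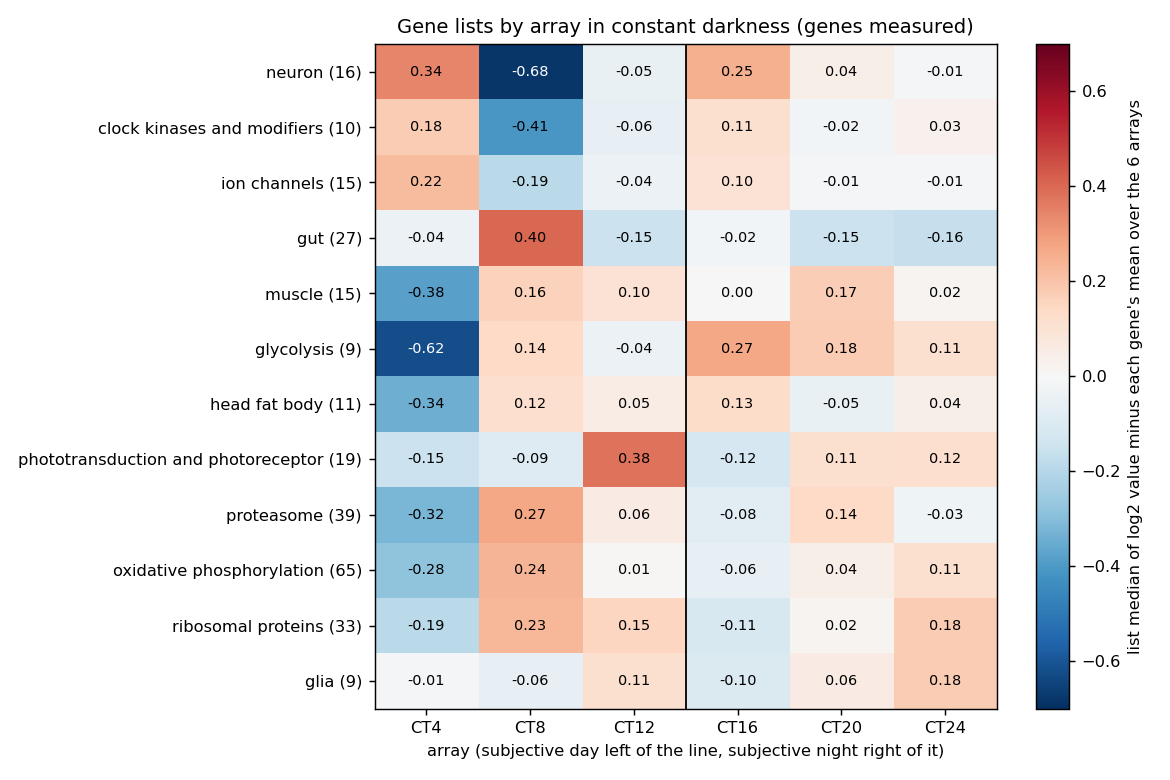
Median of log2 value minus each gene's mean over the 6 darkness arrays, for 12 gene lists (rows, with the number of genes measured) in each array (columns; the subjective day arrays CT4, CT8 and CT12 stand left of the line, the subjective night arrays right of it). CT8 was low for neuron markers (-0.68) and high for gut markers (0.40), and CT4 was low for glycolysis (-0.62) and muscle (-0.38).

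Of 19 measured genes of phototransduction and photoreceptors (28 listed), 0 were called and 0 had groups that do not overlap, with a median difference of -0.07. rdgC, the phosphatase of rhodopsin, measured 4.32, 3.68 and 5.34, against 4.92, 5.75 and 5.51, and its difference of -0.95 ± 0.42 was -0.05 without CT4 and CT8. Ggamma30A, a subunit of the G protein of vision, measured 6.49, 7.57 and 8.33, against 7.76, 8.53 and 8.36. CT12 was the array with the highest median of this list, at 0.38. Of 9 glia markers 0 were called and the median was -0.07. Gs2, a glutamine synthetase, differed by -0.31 ± 0.18 and wrapper, a surface protein of midline glia, by 0.12 ± 0.09.

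In the large metabolic and protein families the medians of the difference lay near that of all genes. They were 0.08 for 33 ribosomal protein genes, 0.01 for 39 proteasome genes and -0.01 for 65 genes of oxidative phosphorylation, with 0 calls in each, and all 3 lists had their lowest median in CT4 and their highest in CT8. The ribosomal protein genes RpS20 and RpS19b differed by 0.27 ± 0.13 and 0.16 ± 0.09. Of the subunit genes of cytochrome c oxidase, COX7A differed by -0.19 ± 0.09 and COX6AL2 by 0.16 ± 0.09, and of the proteasome genes, Rpn1 differed by -0.42 ± 0.22 and Prosbeta2R2 by 0.31 ± 0.13. COX6AL2 measured 2.62 to 2.91 in darkness, far below the array medians. Of 10 heat shock and chaperone genes 9 were lower, with 0 calls and a median of -0.13, which was -0.05 without CT4, their low array (list median -0.25 there). The mitochondrial chaperone gene Hsc70-5 differed by -0.29 ± 0.18, and the small heat shock gene Hsp27 by -0.12 ± 0.08, without overlap. The medians were 0.02 for 83 cytochrome P450 genes, 0.04 for 34 glutathione S-transferases and 0.08 for 33 glycosyltransferases, 0.06 for 13 immune genes and -0.05 for 19 genes of lipid and feeding metabolism, all with 0 calls. GstS1 was lower without overlap (-0.28 ± 0.11) and so was the fat lipase bmm (-0.29 ± 0.12). The lipase gene Lip3 (0.21 ± 0.09) and PGRP-SC2, a peptidoglycan recognition protein (0.23 ± 0.11), were higher without overlap. Such members stand beside 3.49% of all genes lower and 3.88% higher without overlap. Other members with a large ratio of difference to error within their list were Mtk, which encodes an antimicrobial peptide (0.54 ± 0.35), GstD9 (0.38 ± 0.19), Ugt307A1 (0.18 ± 0.10), Cyp301a1 (0.14 ± 0.09) and Cyp28a5 (-0.28 ± 0.17).

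Genes of the cuticle and of smell and taste gave no call. Of 68 cuticle genes 5 were higher without overlap and 1 lower, beside 3.88% and 3.49% of all genes. Cpr72Ec measured 7.26, 7.45 and 7.32, against 6.61, 7.08 and 7.18 (difference 0.38 ± 0.16), and Cpr47Ea 4.38, 4.29 and 4.18, against 4.48, 4.72 and 4.57. Of 35 odorant-binding protein genes 5 were higher without overlap, by 0.12 to 0.25, and 2 lower, Obp99a and Obp28a. Among 80 odorant and gustatory receptor genes, of which 57 were higher, the counts were 2 and 1, and Gr28a and Or85f differed by 0.20 ± 0.11 and 0.14 ± 0.09. The 3 activity-regulated genes had a median of 0.07, with Hr38 at 0.17 ± 0.12 and kay at 0.07 ± 0.26.

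Markers of the reproductive tissues were mostly higher in the subjective day by small amounts, with 0 calls. Of 17 genes of testis and accessory gland 15 were higher, and of 14 ovary genes 12 were, where 57.4% of all genes were. Their median differences were 0.03 and 0.10, and both lists had their highest median in CT8, at 0.09 and 0.14. Without CT4 and CT8 the medians were -0.01 and -0.08. osk, which assembles the germ plasm of the egg, measured 3.09, 3.33 and 2.73, against 2.72, 2.71 and 2.69, and the eggshell gene Cp15 5.96, 6.02 and 5.87, against 5.75, 5.82 and 5.72, so neither overlapped. These were 2 of the 14 ovary genes, beside 3.88% of all genes higher without overlap. The sex peptide gene SP differed by 0.31 ± 0.16 and the accessory gland gene Acp26Aa by 0.18 ± 0.12. Acp26Aa measured 2.23 to 2.66. Like osk, it lay far below the array medians, which were 4.805 to 4.867, so the values do not show that either is expressed in heads. The same limit holds for COX6AL2, Ugt307A1, Hr38, Gr28a, Or85f, Cyp301a1 and Sr-CI. Their values in darkness lay between 2.48 and 3.84. The median over 8 haemocyte genes was 0.00, with the scavenger receptor gene Sr-CI at 0.10 ± 0.09 and the peroxidasin gene Pxn at -0.08 ± 0.11.

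The day in darkness differed from the light/dark day before it. The difference of the day minus night differences passed limma's interaction test in 8 genes (0.0738%; 498 genes, 4.59%, had an unadjusted p under 0.05), all more negative in darkness: CG7564, Edc3, Ythdf, CASK, cic, sano, CycT and Ae2. Each was lower in the subjective day than in the subjective night, but higher in the light phase than in the dark phase, without overlap in either day. Edc3 measured 6.24, 6.44 and 5.25 in the light phase (ZT4, ZT8, ZT12) and 4.34, 4.17 and 4.43 in the dark phase (ZT16, ZT20, ZT24). Its difference was 1.66 there, and the interaction was -3.64 ± 0.35 (SE, n = 12; limma adjusted p = 0.002). CG7564 measured 5.25, 5.15 and 5.32 in the light phase and 4.13, 4.08 and 3.95 in the dark phase, with an interaction of -2.77 ± 0.13 (limma adjusted p = 3.349e-06, n = 12). The low levels of both genes thus ran from ZT16 through CT12, over 6 collections in a row, and ended at CT16.

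**Figure D4:**
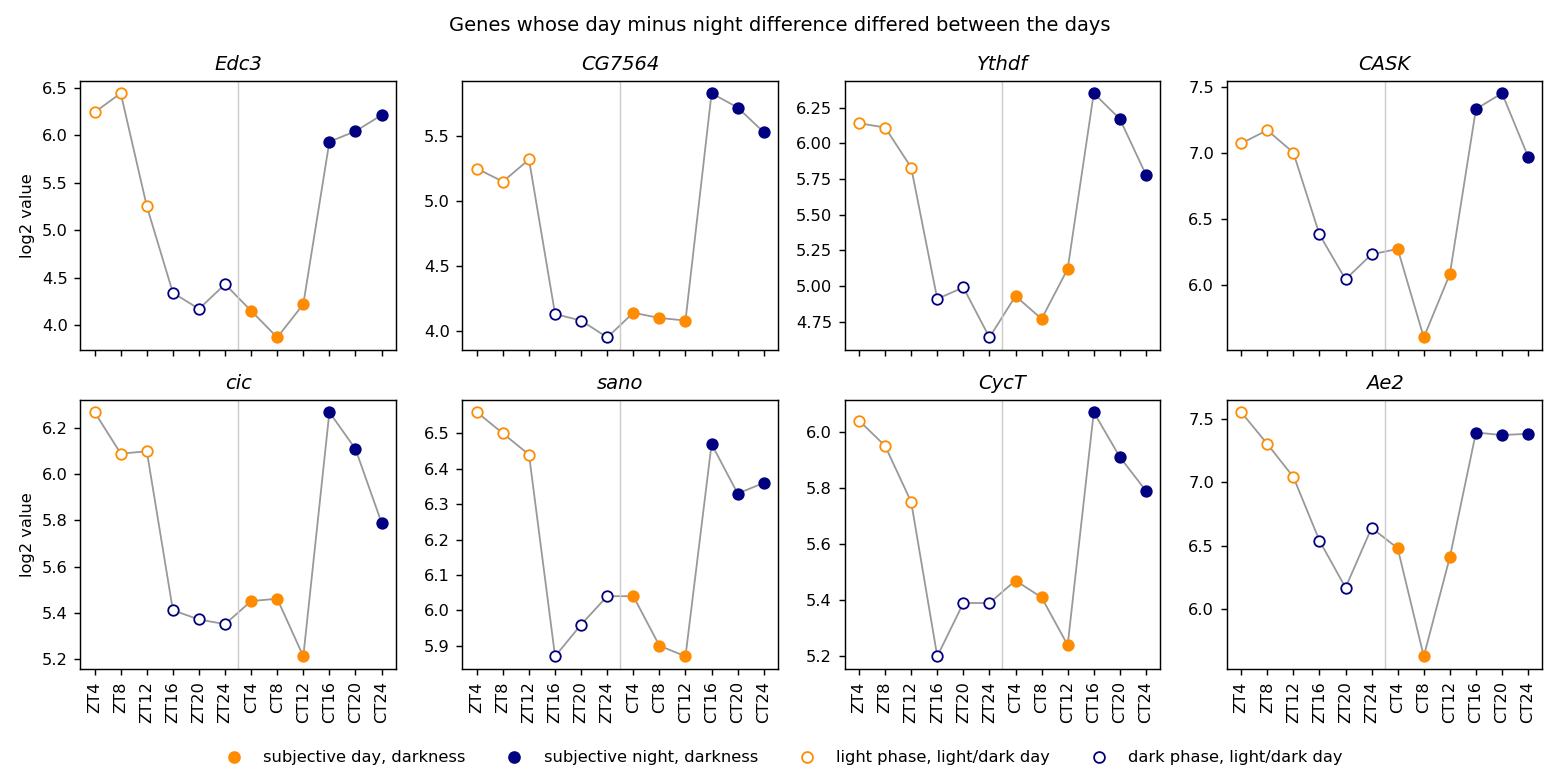
Log2 values of the 8 genes past the threshold for the interaction, in order of collection: the light/dark day (open points, ZT4 to ZT24) left of the grey line and the day in darkness (filled points, CT4 to CT24) right of it, orange for day and blue for night, each panel with its own scale. In every panel the 6 arrays from ZT16 to CT12 lie below the other 6, which is the contrast by which the genes were chosen.

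The other 6 had the same course. It follows from their choice, since the interaction sets the arrays from ZT16 to CT12 against the rest. Ythdf measured 6.14, 6.11 and 5.83 in the light phase and 4.91, 4.99 and 4.64 in the dark phase, with an interaction of -2.34 ± 0.23 (limma adjusted p = 0.002, n = 12). The interactions of CASK, Ae2, cic, CycT and sano, a gene of planar cell polarity, were -2.13, -2.05, -1.47, -1.14 and -1.0, with limma adjusted p between 0.0085 and 0.0407. With hour of day as a block 3 of the 8 passed, namely CG7564, Ythdf and Edc3. The next by p did not pass: IP3K2 (-1.82 ± 0.29, adjusted p = 0.0518), CG9003, tna, REPTOR and CG6154 on the negative side and Chchd2 (2.98 ± 0.55, adjusted p = 0.1459) on the positive side. Chchd2 measured 7.37, 7.26 and 8.10 in the light phase and 9.60, 8.50 and 9.62 in the dark phase.

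Over all genes, 29 had their 6 arrays from ZT16 to CT12 all below the other 6, and 13 had them all above. How many would do so with no change was not worked out, so these counts are given as values only. Of the 378 genes lower without overlap in the subjective day, 46 (12.2%) were higher without overlap in the light phase, where 2.30% of all genes were; they are 18.5% of the 249 such genes. Only 11 of the 378 (2.91%) were lower in both, where 4.38% of all genes were lower in the light phase. Of the 421 higher without overlap, 28 (6.65%) were lower in the light phase and 8 (1.90%) were higher. By size alone, 113 of the 133 genes lower by at least 0.5 in the subjective day had the opposite sign in the light/dark day, as did 14 of the 24 higher by as much; over all genes 5006 of 10843 were higher in the light phase. Of the 10 genes higher by at least 0.5 without overlap, Cht5, Sclp, CG8483 and CG17298 had higher means in the light phase too. They differed there by 0.65 ± 0.41, 0.86 ± 0.51, 0.58 ± 0.82 and 0.97 ± 0.48 (SE). In each of them the light and dark phase arrays overlapped, and CG8483 was highest at ZT24, at 8.69. Acp95EF differed by 0.03 in the light/dark day, and the others were lower in the light phase. The light/dark day on its own had 0 calls by limma and 295 genes (2.72%) with an unadjusted p under 0.05.

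**Figure D5:**
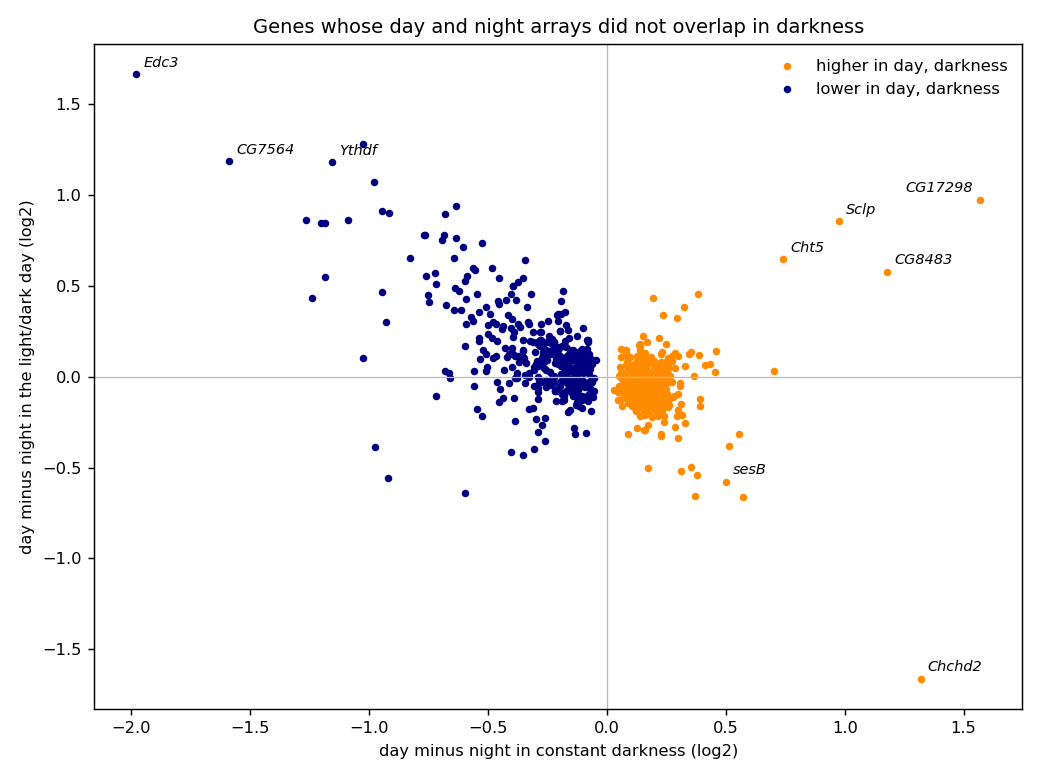
Each point is 1 of the 799 genes whose subjective day and subjective night arrays did not overlap; the x axis gives the day minus night difference in constant darkness and the y axis that in the light/dark day, both log2. Genes far to the left (Edc3, CG7564, Ythdf) lie above zero on the y axis, and CG17298, CG8483, Sclp and Cht5 are above zero on both.

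Single arrays weighed on this contrast of days as well. Across genes, which are not independent, the differences of the days had a Pearson correlation of -0.38, which was -0.49 without CT8, -0.21 without CT4, ZT16 and ZT24, and 0.04 without CT4 and CT8. The arrays ZT24, CT4 and ZT16 had the highest 3' minus 5' signals of the 12 (3.32, 2.88 and 2.58), and all 3 fall in the stretch from ZT16 to CT12. The part of RNA quality in the course of the 8 genes, which were chosen on all 12 arrays, was not tested beyond leaving each array out in turn. Lighting, elapsed time and any batch that changed between the days cannot be told apart here.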

How the data were processed

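Total RNA of pooled heads was measured on 12 Affymetrix arrays, 1 per collection. Per the submitters' processing notes, the authors made the deposited values with RMA, which corrects background, normalizes arrays and summarises probes, with no version stated. These deposited values were read as log2 from their range, 1.715 to 13.515, so the base is inferred. Precision is limited by the number of arrays: the difference had a median SE of 0.118.

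Of 14010 probe sets, 44 controls were set aside and 13966 tested; 12442 had 1 gene in the platform annotation, 327 several and 1197 none here. Symbols were updated through RefSeq identifiers (12393 found), giving 10843 genes, each its brightest probe set; 1209 had several. The subjective day was set against the subjective night with limma 3.58.1 in R 4.3.3 on the 6 darkness arrays, and the days through an interaction on all 12, with Benjamini-Hochberg adjustment over the 13966 probe sets. The method was tested on simulated data. Named were all core clock genes; called genes, filled up to 12 per direction by p among genes without overlap and with a difference of at least 0.5; 2 genes per list by t; the 5 genes losing most without CT4 and the 5 without CT8 among those with a difference of at least 1; and genes called for the interaction with the 6 next. List members without overlap, and those that show what a single array did, were also named after their values were seen. The members, lists and tests were chosen with earlier results of these data known. Alternatives changed the arrays, normalization, filter, variance model, weights, covariate, offset and probe set rule. A planned description of promoters was left out, as no sequences were used here.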

Additional observations from a re-analysis of the deposited data

Results flagged for a closer look

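In 8 genes the day minus night difference in darkness differed from that in the light/dark day by limma's interaction test, each 3 arrays against 3 in both days. The difference in darkness minus that in the light/dark day was -3.64 for Edc3, -2.77 for CG7564, -2.34 for Ythdf, -2.13 for CASK, -2.05 for Ae2, -1.47 for cic, -1.14 for CycT and -1.0 for sano (log2). In each, all 6 arrays from ZT16 to CT12 lay below the other 6, as in 29 of 10843 genes. The interaction sets those 6 arrays against the other 6, so a negative call picks genes that are low there. The arrays ZT16, ZT24 and CT4 of that stretch had the highest 3' minus 5' signals of the 12, and their part in the result was not tested beyond leaving each out in turn.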

How the results depend on the processing

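The 2 calls in darkness (Edc3 and CG7564) were 1 call with only probe sets of a mean of at least 5, 0 without CT12 and CT24 (smallest adjusted p = 0.5352, limma), 0 without CT4 and CT8, and 0 to 2 when each array was left out in turn; under the other alternatives the count stayed within 1.5 times. The 256 genes with an unadjusted p under 0.05 were 126 under that filter, 491 with array weights (CT20 weighed 7.13, CT4 0.376) and 106 to 808 without 1 array each. The 799 genes without overlap were 370 under the filter, 3430 without CT12 and CT24, and 1217 to 2813 without 1 array each; with fewer arrays, groups separate more easily. For the difference between the days, 8 calls were 3 with hour of day as a block and 5 to 11 without 1 array each, and 498 genes with an unadjusted p under 0.05 were 253 under the filter and 292 to 1087 without 1 array each. Differences of the following genes turned their sign. With the 3' minus 5' signal as a covariate per was -0.02, cyc -0.05, vri 0.21 and kay -0.04; with 16 added on the linear scale vri was 0.00, and with array weights 0.39; without CT12 and CT24 kay was -0.09. Without CT4 and CT8, tim was 0.11, cyc -0.06, vri 0.72, cwo -0.02, slmb 0.07, Ggamma30A 0.12, SP -0.01, Acp26Aa -0.01, Hsc70-5 0.00 and lncRNA:CR42862 0.34. Without 1 array each, per ranged from -0.02 to 0.16, Clk from -0.25 to 0.03, cyc from -0.05 to 0.04, vri from -0.36 to 0.35, Pxn from -0.13 to 0.02 and kay from -0.08 to 0.36. The correlation of the days without single arrays was added after seeing the data. The cause of these changes was not tested. The block by hour pairs the arrays of the days. Within the day in darkness, no paired analysis was possible because day and night arrays share no hour.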

Other observations

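Other genes whose 6 arrays from ZT16 to CT12 all lay below or all above the other 6 are given as values, picked after they were seen. REPTOR, a transcription factor active when the growth kinase TOR is low, measured 4.34, 4.22 and 4.95 at CT4, CT8 and CT12, against 5.55, 5.29 and 4.98 at CT16, CT20 and CT24. Hs3st-A, a sulfotransferase of heparan sulfate, measured 6.49, 6.24 and 6.37 in the subjective day, against 6.77, 6.77 and 6.56 in the subjective night. On the high side, the POU domain gene pdm3 measured 5.71, 5.56 and 5.51 in the subjective day, against 5.34, 5.43 and 5.39 in the subjective night, and the acetylcholine receptor subunit nAChRalpha3 6.39, 6.43 and 6.35, against 6.30, 6.29 and 6.16. The gaps between the stretch and the other arrays were narrow. For REPTOR it was 4.96 at ZT24 against 4.98 at CT24, and for Hs3st-A 6.535 at ZT20 against 6.558 at CT24. For pdm3 it was 5.47 at ZT24 against 5.44 at ZT4, and for nAChRalpha3 6.34 at ZT20 against 6.30 at CT16. None of these genes was called, either within darkness or between the days.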
